A study of Mus musculus with 30 samples.

Results

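The cells described here are 13 single primordial germ cells (PGCs) whose deposited genotype label is Prdm14 (+/+), called cells labelled WT below, out of 30 single PGCs in the experiment. They were divided by their own level of *Dppa3*, read from its probe set on the array, at a deposited log2 value of 9. The division gave 9 *Dppa3*-high cells and 4 *Dppa3*-low cells, and every other gene was then compared between these groups. The C57BL/6 embryos came from crosses of Prdm14 (+/-) mice and were taken at embryonic day 7.25 to 7.5, when PGCs cluster at the base of the allantois bud. Single cells were picked with a capillary, their cDNA was amplified, and only cDNAs positive for *Prdm1* by PCR were hybridised, each to 1 Affymetrix GeneChip mouse genome array. No agent was given to any group. The other 17 cells were 13 labelled Prdm14 (+/-) and 4 labelled Prdm14 (-/-), and the former are used below as cells in which the same division was repeated. Because *Prdm1* selected the cells, its detection is no finding.

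*Prdm14* encodes a PR-domain transcription factor of the germ line. Its level ran against the genotype labels, with a mean log2 value of 7.40 ± 1.85 (SD, n = 13 cells) under the WT label. The mean was 9.70 ± 1.93 (SD, n = 13 cells) under the label Prdm14 (+/-) and 11.40 ± 0.98 (SD, n = 4 cells) under Prdm14 (-/-). *Dppa3* itself had a mean of 8.28 ± 3.49 (SD, n = 13 cells) under the WT label and 12.55 ± 0.38 (SD, n = 4 cells) under Prdm14 (-/-). The paper reports the opposite direction, lower *Dppa3* in *Prdm14* knockout PGCs, by microarray and quantitative PCR. Between the cells labelled WT and those labelled Prdm14 (-/-), label and array run cannot be told apart. The cells labelled WT were in runs 1 and 2, and all 4 cells labelled Prdm14 (-/-) were in run 3. Run 3 also held 6 cells labelled Prdm14 (+/-). Within it, *Dppa3* was 11.98 to 12.80 under Prdm14 (-/-) and 0 to 12.92 under Prdm14 (+/-). Whether some labels are exchanged, or the *Prdm14* probe set reads a part of the transcript that the disruption leaves in place, was not tested. What WT means for the 13 cells therefore rests on the deposited label alone. The labels do not name the embryo of a cell, so each group counts as 1 sample. The values therefore describe these cells, SDs give the spread between cells, and no test was made.

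DPPA3, also called STELLA or PGC7, is a small protein of PGCs, oocytes and early embryos that binds UHRF1, the factor that brings the maintenance methyltransferase DNMT1 to newly replicated DNA. PGCs arise from epiblast cells under BMP and WNT signals and first share the expression of mesoderm genes with their somatic neighbours. PRDM1, PRDM14 and TFAP2C then act together to repress that somatic programme and to keep or regain pluripotency genes, and *Dppa3* comes on as the germ cell fate is established.

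The *Dppa3* values that chose the groups were 11.77 in cell 49, 11.21 in cell 48, 10.71 in cell 51, 10.58 in cell 33, 10.10 in cell 59, 9.88 in cell 56, 9.26 in cell 31, 9.25 in cell 65 and 9.02 in cell 25. The values of the 4 *Dppa3*-low cells were 7.82 in cell 28, 4.63 in cell 50, 3.40 in cell 61 and 0 in cell 64. Cell 25 thus lay just inside the threshold of 9, while cell 28, the nearest cell below it, had 7.82. These 2 cells were still closer to each other than cell 28 was to cell 50. The 13 cells came from 2 of the 3 array runs, as read from the array codes in the titles. Run 1 held 8 *Dppa3*-high and 2 *Dppa3*-low cells, and run 2 held 1 *Dppa3*-high cell (cell 65) and 2 *Dppa3*-low cells (cells 61 and 64).

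**Figure D1:**
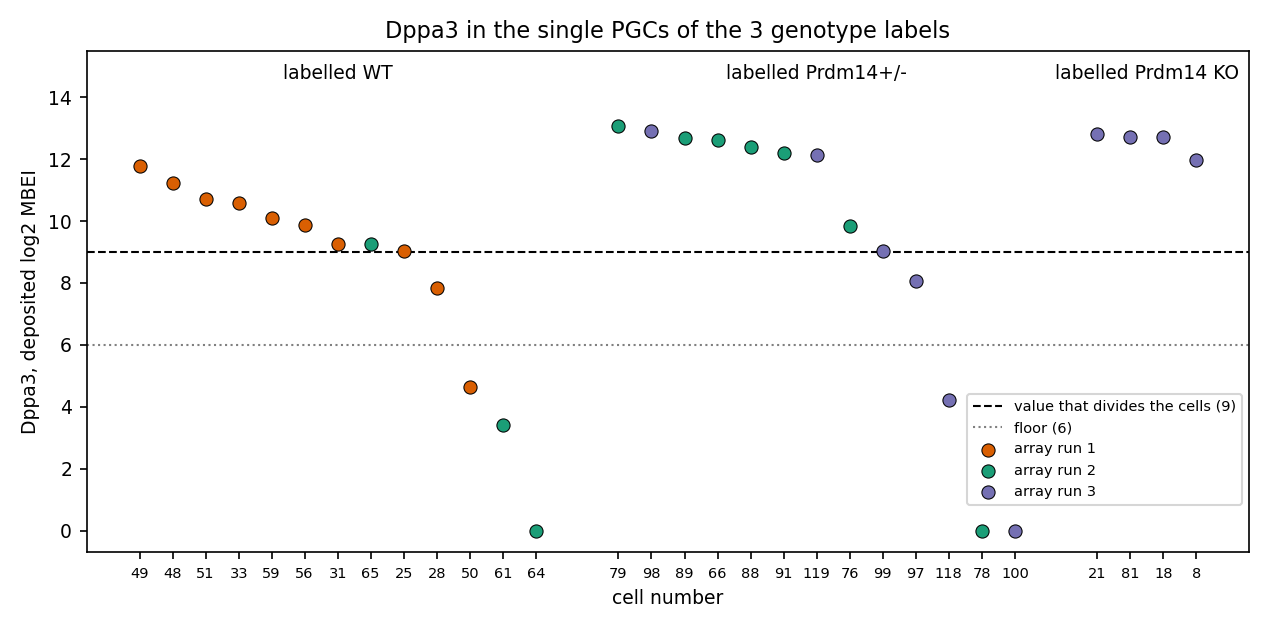
Deposited *Dppa3* value (log2 MBEI, y axis) of each of the 30 cells (x axis, cell number), grouped by genotype label and coloured by array run. The 9 *Dppa3*-high cells labelled WT run from 9.02 to 11.77 and the 4 *Dppa3*-low cells from 0 to 7.82, and the cells labelled Prdm14 (+/-) also divide into 9 and 4.

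The deposited unit is the log2 of a model-based expression index (MBEI), and 58.9% to 69.3% of the probe sets of each of the 13 arrays were listed at 0. This share had a median of 64.1% in the *Dppa3*-high and 64.7% in the *Dppa3*-low cells. All values below 6 on the log2 scale were set to 6, here called the floor, and cells at it cannot be ranked against each other. A difference below is the mean of the floored log2 values in the *Dppa3*-high cells minus that in the *Dppa3*-low cells. It can understate the distance to a group that holds cells at the floor. Where a value of 0 is a failed estimate, it can overstate that distance. No 2 of the arrays held identical values, and the number of arrays limits the precision. Cell 49 had the lowest control signals, with 10.90 for the 3' end of *Actb* where the other *Dppa3*-high cells had 12.07 to 12.47.

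Over the 9545 genes above the floor in at least 3 of the 13 cells, 860 genes (9.01%) had a difference of 1 or more and 937 (9.82%) a difference of -1 or less; these are called higher and lower. The median difference was -0.03, and the median spread between cells within groups was 1.28. Differences of 1 were thus common within this spread, and 364 of the higher and 379 of the lower genes differed by more than their own SD. Groups that did not overlap at all were rare, with 5 higher genes (0.0524%) and 13 lower genes (0.136%). Some such genes arise by chance among 9545, and whether these counts exceed that was not tested. In both array runs the sign was the same for 642 of the higher and 622 of the lower genes.

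Genes of early mesoderm and posterior identity were more often lower than higher in the *Dppa3*-high cells. Of the 24 genes listed, 22 were measured, 13 were above the floor in enough cells to be compared, 6 of these were lower by at least 1 and 1 was higher by at least 1. Over all genes compared 9.82% were lower. The median difference was -0.34 for these 13 members and -0.14 for the 22 measured, of which 9 were above the floor in fewer than 3 cells. The mean level over the 22 genes, here called the list score, was 7.25 ± 0.45 (SD, n = 9) in the *Dppa3*-high cells and 7.83 ± 0.63 (SD, n = 4) in the *Dppa3*-low cells. The score differed by -0.58, which was past the SD between cells of 0.51, but the groups overlapped. Cell 61 had the highest score of the 13 cells, 8.66, and without it the difference was -0.30, with 7 of 13 members lower and 2 higher. Over all 9359 genes compared without that cell, 1054 were lower and 1087 higher. The difference was -0.44 within run 1 and -0.77 within run 2.

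*Mesp1*, a transcription factor of nascent and cardiac mesoderm, was 1 of the 13 lower genes (0.136% of those compared) whose groups did not overlap. Its log2 level was 12.25 in cell 28, 11.93 in cell 50, 13.01 in cell 61 and 11.95 in cell 64. In the 9 *Dppa3*-high cells it ran from the floor to 11.69 with a median of 9.76, and 4 of these cells (25, 33, 48 and 49) were at the floor. Every *Dppa3*-low cell was therefore above every *Dppa3*-high cell, with a difference of -3.52 and an SD between cells of 2.29. The other 5 *Dppa3*-high cells still had values of 9.76 to 11.69. Within the runs the difference was -3.45 and -2.72.

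*Hoxb1*, a homeobox gene of the posterior primitive streak, was at the floor in 8 of the 9 *Dppa3*-high cells, and cell 31 had 7.17. The *Dppa3*-low cells had 8.77, 9.79, 10.97 and the floor in cell 64, a difference of -2.75. *Mixl1*, a homeobox gene of mesendoderm, was likewise at the floor in 8 *Dppa3*-high cells, with 8.79 in cell 59. Its values in the *Dppa3*-low cells 28, 50, 61 and 64 were 9.34, 8.25, 11.06 and the floor, a difference of -2.35. For both genes 3 of the 4 *Dppa3*-low cells were therefore clearly above the floor, and cell 64, whose *Dppa3* was listed at 0, was not.

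*Cdx1*, a caudal homeobox gene, differed by -1.77, *Tbx6*, a T-box gene of paraxial mesoderm, by -1.67, and *Pdgfra*, a receptor of mesodermal cells, by -1.32. Each of these overlapped between the groups. *Twist1*, a factor of mesenchymal cells, was the 1 member higher by at least 1, with a difference of 1.49, but within run 2 it was lower by 0.74 in the *Dppa3*-high cell. The lineage heatmap shows that the *Dppa3*-high cells were not alike: cells 25, 33, 48 and 49 had *Mesp1* at the floor, while cells 31 and 51 held *Mesp1*, *Cdx1*, *Tbx6*, *Pdgfra*, *Smad1*, *Wnt3a* and *Sp5* all above the floor.

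**Figure D2:**
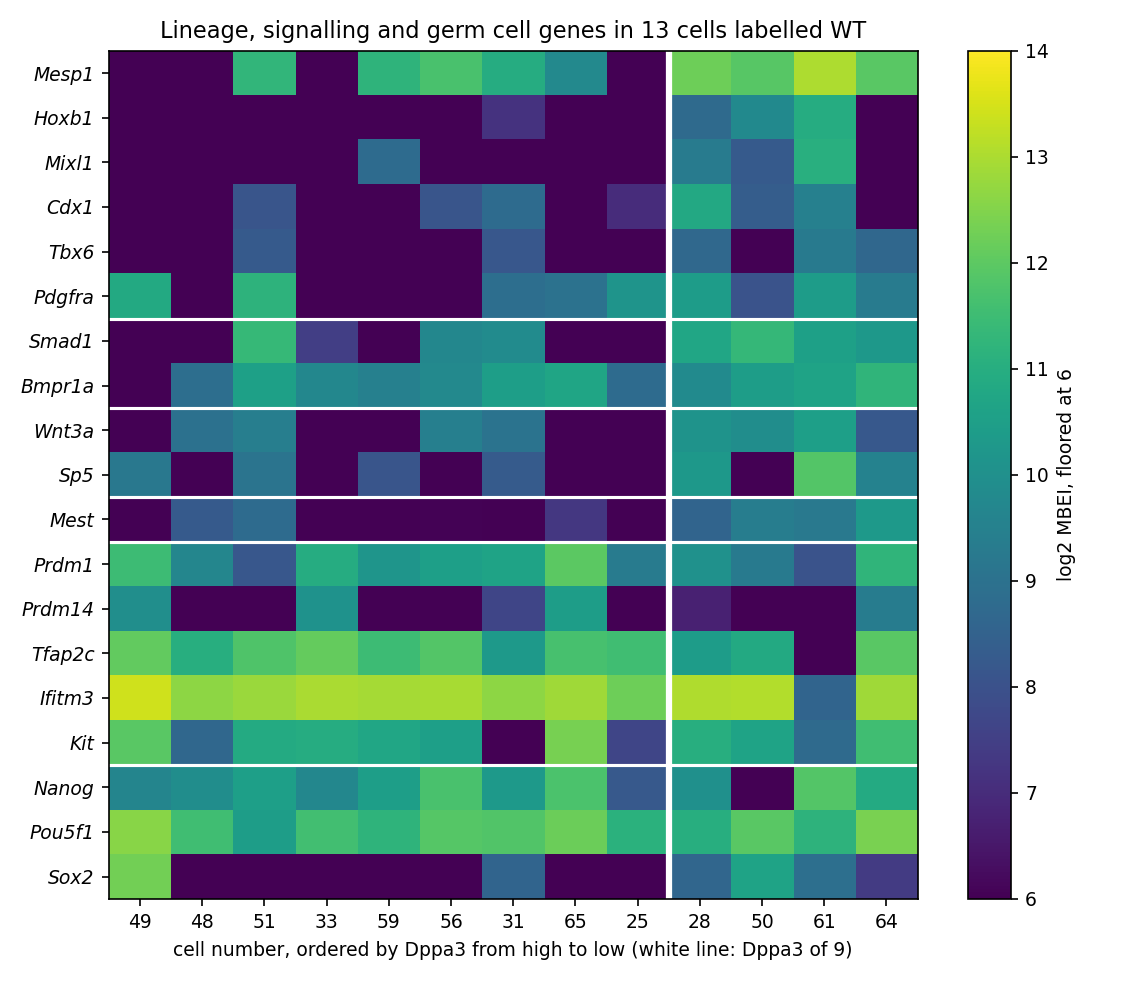
Floored log2 MBEI (colour) of 19 genes (rows: mesoderm, BMP, WNT, imprinted *Mest*, germ cell and pluripotency genes) in the 13 cells labelled WT (columns), ordered by *Dppa3*. *Mesp1* and *Smad1* are above 10 in all 4 *Dppa3*-low cells, while *Tfap2c* is at the floor and *Ifitm3* at 8.59 in cell 61 alone.

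The signalling lists held members in both directions, beside 9.01% higher and 9.82% lower over all genes. Of 17 BMP pathway genes compared, 1 was higher and 2 were lower, of 12 WNT genes 1 was higher and 2 were lower, of 7 Nodal and activin genes 1 was higher and 1 lower, and none of 12 FGF and MAPK response genes differed by 1. *Smad1*, which carries the BMP signal to the nucleus, had 10.74, 11.33, 10.53 and 10.28 in *Dppa3*-low cells 28, 50, 61 and 64. In the *Dppa3*-high cells 5 of 9 were at the floor and the highest, cell 51, had 11.37, so the groups overlapped by that cell alone. The difference was -3.12 with an SD between cells of 1.84, and it was -3.23 within run 1 and -4.41 within run 2. The 3 probe sets of *Smad1* disagreed, since another gave a difference of 0.15 and the remaining one was above the floor in 1 cell.

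The BMP receptor gene *Bmpr1a* differed by -1.17 and *Smad5*, a relative of *Smad1* in the same pathway, by 1.02. The WNT ligand gene *Wnt3a* had 10.12, 9.92, 10.50 and 8.21 in the *Dppa3*-low cells and was at the floor in 5 of 9 *Dppa3*-high cells, with a highest value of 9.47 and a difference of -2.25. *Sp5*, a target of WNT signalling, differed by -2.23, but cell 50 was at the floor and the difference within run 1 was -0.79. *Tcf7l1*, a repressor of WNT targets, differed by 1.28. Among the Nodal genes, the signal carrier *Smad3* was higher by 1.91, with 7.98 to 10.58 in the *Dppa3*-high cells and 7.31, 6.25, 7.25 and 9.64 in the *Dppa3*-low cells. The activin antagonist *Fst* differed by -1.39. The ligand and carrier genes thus did not share 1 direction.

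Of the 10 early germ cell genes compared (*Dppa3* is not on this list), 1 was higher by at least 1 and none was lower, which is near the 9.01% and 9.82% over all genes. The list score was 10.59 ± 0.62 (SD, n = 9) against 10.20 ± 0.98 (SD, n = 4), a difference within the SD between cells of 0.73. *Tfap2c*, a core factor of the PGC programme, was the higher one, with 10.32 to 12.11 in the *Dppa3*-high cells and 10.43, 10.86, the floor and 11.95 in cells 28, 50, 61 and 64. The difference was 1.73, with cell 61 the 1 cell at the floor, and the other probe sets of *Tfap2c* gave 0.35 and 0.36. In cell 61 the interferon-induced membrane protein gene *Ifitm3* was also low, at 8.59, where the other 12 cells had 12.23 to 13.42. Without cell 61 the score difference turned from 0.39 to -0.09. Then 0 members were higher and 1 was lower, beside 1087 higher and 1054 lower of all 9359 genes. With *Dppa3* left out, cell 61 had 4 of 6 measured PGC markers above the floor, *Tfap2c* and *Prdm14* being at it, and 7 of 9 somatic mesoderm markers. *Dppa3*-high cell 31 also had 7 of 9 somatic mesoderm markers above the floor, with 5 of 6 PGC markers.

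*Prdm1* differed by 0.67, within its SD of 1.21. *Prdm14* was at the floor in 5 of 9 *Dppa3*-high cells and reached 10.44, while the *Dppa3*-low cells had 6.74, the floor, the floor and 9.34, a difference of 0.55. *Kit*, a receptor needed for PGC survival, differed by -0.52 and *Dnd1*, an RNA-binding protein gene of germ cells, by 0.51. *Alpl*, the alkaline phosphatase used to stain PGCs, differed by -0.50. All of these lay within their SD between cells.

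Of 11 pluripotency genes compared, none was higher and 1 was lower by at least 1, beside 9.01% higher and 9.82% lower over all genes. *Pou5f1*, which PGCs keep on throughout, differed by -0.03, with 10.44 to 12.59 in the *Dppa3*-high cells and 11.01, 11.95, 11.17 and 12.40 in the *Dppa3*-low cells. *Nanog* lies next to *Dppa3* on chromosome 6 and differed by 0.57, with 10.01, the floor, 11.85 and 10.88 in cells 28, 50, 61 and 64. *Sox2*, which PGCs regain after specification, was at the floor in 7 of 9 *Dppa3*-high cells, yet reached 12.31 in cell 49. The *Dppa3*-low cells had 8.65, 10.65, 8.93 and 7.40, a difference of -1.92 and within the SD of 1.98. The highest *Dppa3* and the highest *Sox2* values of these cells were thus in the same cell.

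DPPA3 acts on DNA methylation. Of 13 genes compared that place or remove this mark, 1 was higher and 2 were lower by at least 1, beside 9.01% and 9.82% over all genes. *Uhrf1* differed by -0.09 and *Dnmt1* by -0.07. The *de novo* methyltransferase gene *Dnmt3b* differed by -1.05, with cell 49 at the floor and the other 12 cells at 10.37 to 12.65. *Tet1*, whose enzyme oxidises 5-methylcytosine, differed by -1.11, while another of its probe sets, above the floor in 6 cells, gave 0.17. *Gadd45b*, a stress-response gene also linked to demethylation, differed by 1.16. Each was within its SD between cells.

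Of 18 histone methylation genes, 1 was higher and 1 was lower by at least 1, beside 9.01% higher and 9.82% lower over all genes. *Kdm6a*, an X-linked histone demethylase gene, had 9.55, 11.16, 9.65 and 10.58 in the *Dppa3*-low cells and a median of 8.49 in the *Dppa3*-high cells, a difference of -2.14 that was -0.58 within run 2. The 3 other probe sets of *Kdm6a* differed by -0.11 to 0.08. The 1 higher gene was its relative *Kdm6b*. The imprinted genes gave 3 higher and 1 lower of 16 compared, beside the same 9.01% and 9.82%. *Mest*, expressed from the paternal allele in mesoderm, was the lower one, with 8.59, 9.40, 9.24 and 10.34 in the *Dppa3*-low cells. It was at the floor in 5 of 9 *Dppa3*-high cells, reached 8.81 in cell 51, and differed by -2.68 with an SD of 1.03. The higher ones were *Ndn* by 2.02, *Plagl1* by 1.58 and *Impact* by 1.19, and for *Ndn* the difference was -0.15 within run 1.

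The list with the largest score difference of the 23 was that of G2 and M phase genes, and its value depended on single cells. Of 14 G2 and M phase genes compared, 4 were higher by at least 1 in the *Dppa3*-high cells and none was lower, beside 9.01% higher over all genes. They were *Aurkb* (2.54) and *Aurka* (1.53), kinases of mitosis, the proliferation marker *Mki67* (2.29) and *Cenpf* (1.23), a kinetochore protein gene. *Mki67* was 10.19 to 12.03 in all 9 *Dppa3*-high cells, 11.21 and 11.64 in cells 28 and 61, and at the floor in cells 50 and 64. The list score was 12.03, 8.82, 11.62 and 9.25 in cells 28, 50, 61 and 64, and 9.55 to 12.36 in the *Dppa3*-high cells. The score difference of 0.79 was within the SD of 1.09. It was 0.25 without cell 50, 0.39 without cell 64, 1.32 without cell 28 and 1.18 without cell 61. With the cells divided at a *Dppa3* value of 10 it was -0.19, with 0 of 14 genes higher, beside 624 of all 9545 genes. With a value of 6 it was 1.40, with 9 of 14 higher, beside 1254 of 9545.

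The G1 and S phase list gave 0 higher and 1 lower of 15 compared, beside 9.01% and 9.82% over all genes. Its score difference was -0.44 with an SD of 0.58. The lower gene was *Ccnd1*, the D-type cyclin that drives entry into S phase, with 10.27, 9.83, 11.08 and 11.16 in the *Dppa3*-low cells. In the *Dppa3*-high cells 3 of 9 were at the floor, the median was 8.73 and the highest value was 11.48. The difference was -2.02, and all 3 probe sets of *Ccnd1* gave the same direction, from -1.46 to -2.02.

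**Figure D3:**
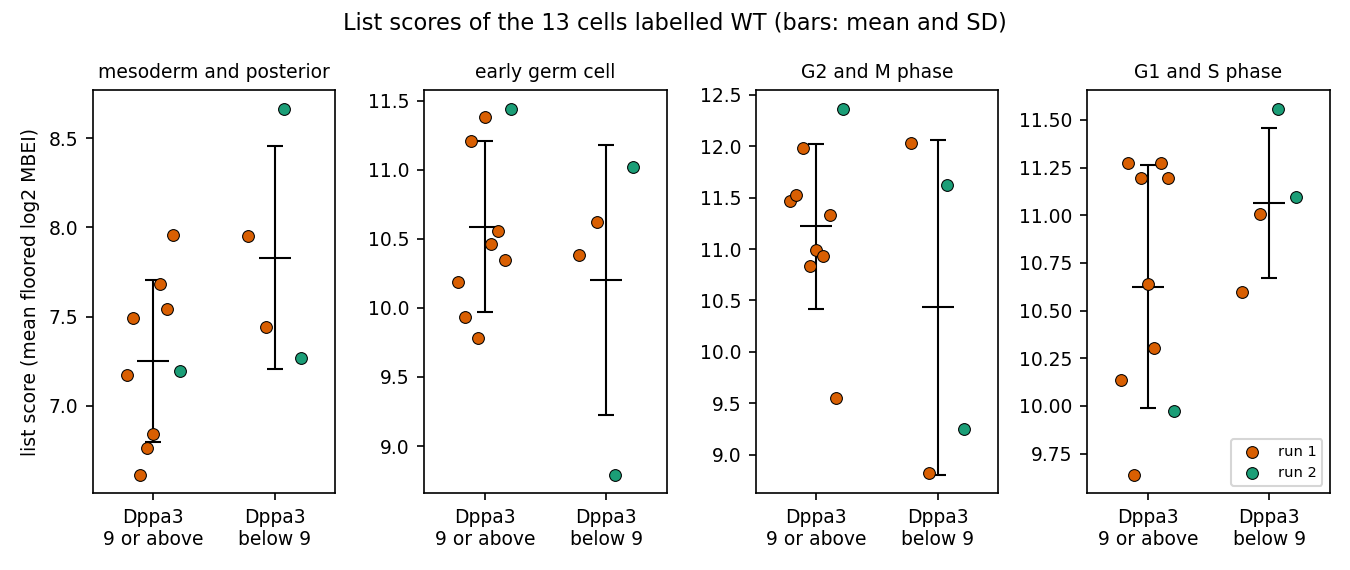
List scores (mean floored log2 MBEI of a list's measured genes, y axis) of the 13 cells labelled WT for 4 gene lists, with the mean and SD of each group and points coloured by array run. The groups overlap for all 4 lists, cell 61 is highest in mesoderm and lowest in the early germ cell list, and cells 50 and 64 are the lowest in G2 and M phase.

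Markers of other cell types were checked per cell. Of the somatic mesoderm markers, 2 to 7 of 9 (median 3) were above the floor in a *Dppa3*-high cell and 4 to 7 (median 5.5) in a *Dppa3*-low cell, and their mean level was 6.52 to 8.16 and 7.93 to 9.07. The endoderm markers *Afp*, *Ttr* and *Apoa1*, the blood markers *Gata1*, *Runx1* and *Hbb-bh1*, and the extraembryonic markers *Elf5*, *Ascl2*, *Tpbpa* and *Rhox6* were at the floor in all 13 cells. Other members of these lists were not. *Sox17* was above the floor in 8 of 9 *Dppa3*-high and 2 of 4 *Dppa3*-low cells, and the placental gene *Plac1* in 6 of 9 and 3 of 4, while *Foxa2*, *Gata6*, *Sox7*, *Kdr*, *Tal1*, *Cdh5*, *Pecam1* and *Rhox5* were above it in 1 or 2 of the 13 cells each. Of the 6 PGC markers other than *Dppa3*, 5 to 6 were above the floor in a *Dppa3*-high cell and 4 to 6 in a *Dppa3*-low cell. These 6 include *Prdm1*, by which the cells were selected, and it was above the floor in all 13. Whether some *Dppa3*-low cells were somatic cells positive for *Prdm1*, or PGCs at an earlier step, was not tested.

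The remaining lists held few compared genes or members in both directions, beside 9.01% higher and 9.82% lower over all genes. Of the endoderm list 3 genes were compared and *Sox17*, a factor of endoderm and blood vessels, was higher by 1.94 within an SD of 2.18. None of the 2 blood and 2 extraembryonic ectoderm genes compared differed by 1. Of 5 epiblast and ectoderm genes, *Sox3* was higher (1.73), and *Krt18* (-1.27) and *Epcam* (-1.19) were lower. *Sox3* was at the floor in cell 61 alone and was 12.06, 10.38 and 12.04 in *Dppa3*-low cells 28, 50 and 64. Of 4 later germline genes, *Ddx4*, an RNA helicase gene, was higher by 1.45, with all 4 *Dppa3*-low cells and 5 of 9 *Dppa3*-high cells at the floor. Of 3 X- and Y-linked genes 1, *Xist*, was lower. It was 9.97, 12.34 and 10.96 in *Dppa3*-low cells 50, 61 and 64 and at the floor in cell 28. In *Dppa3*-high cells 48, 49, 51 and 56 it was 11.12 to 12.43, and in the others it was at the floor. The Y-linked *Eif2s3y* was above the floor in cells 25, 28, 31, 33 and 59 alone. Whether the groups differed in embryo sex was not tested. Of 10 immediate early and stress genes *Fos* (1.53) and *Junb* (1.40) were higher and *Atf3* (-1.62) and *Ier2* (-1.38) lower. Of 9 apoptosis genes 2 were higher and 1 was lower, of 15 adhesion and migration genes 2 were higher and 3 lower, and of 11 housekeeping genes 1 was higher and none lower. Of the protein-coding genes nearest to *Dppa3* in the gene order of GRCm38.p6, *Gdf3* on one side differed by 0.74 and *Nanog* on the other by 0.57, and *Slc2a3*, a glucose transporter gene beyond *Nanog*, by 0.13. *Necap1*, 5 genes away, was the 1 of 4 compared members of the neighbourhood list that was higher, by 1.17, and within run 1 its difference was -0.08. On the other side *Rimklb*, also 5 genes away, was lower, with a difference of -1.18, *Phc1* differed by -0.32 and *M6pr* by 0.21.

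The 18 genes whose groups did not overlap were mostly outside the lists. *Pigf*, a gene of GPI anchor synthesis, was 9.56 to 11.10 in the *Dppa3*-high cells and 7.73, 9.16, 8.19 and 7.58 in the *Dppa3*-low cells, a difference of 2.50 with an SD of 0.59. *Casp8ap2*, a gene of apoptosis and histone transcript processing, was 10.13 to 10.95 against 8.70, 9.35, the floor and 8.84, a difference of 2.31. The other 3 higher genes were *Pdpr* (2.19), *4833439L19Rik* (2.03) and *Aldh18a1* (1.37), an enzyme gene of proline synthesis. That all 5 were above the floor in all 9 *Dppa3*-high cells follows from how they were chosen.

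Of the 13 lower genes, *Mesp1* was the one on a list. *Mas1*, a G protein-coupled receptor gene, was at the floor in all 9 *Dppa3*-high cells and 7.61, 8.94, 9.55 and 7.89 in the *Dppa3*-low cells. *Chid1*, a chitinase-domain gene, was at the floor in 8 of 9 and had 8.71, 10.07, 9.37 and 9.23 in the *Dppa3*-low cells, a difference of -3.09. *Orc1*, a subunit of the complex that marks replication origins, was 6 to 9.30 against 10.24, 9.62, 10.63 and 9.65, a difference of -2.26. The others were *Dcun1d2* (-2.73), *Plpp5* (-2.26), *Bbs9* (-2.25), *Tysnd1* (-2.12), *Mkrn1* (-2.04), *Yipf6* (-1.99), *Galk2* (-1.43), *Cux2* (-1.29) and *Cpne5* (-1.24).

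A ranking by the smaller of the differences over all cells and within run 1 gave 10 genes in each direction, out of 471 and 505 that met its conditions. The 10 highest were *Cryz* (3.45), *Setd6* (3.03), *Cnot4* (2.82), *2210016F16Rik* (2.79), *Rad51c* (2.71), *Pnpla7* (2.58), *Ercc6l2* (2.51), *Kbtbd2* (2.51), *Gclc* (2.49) and *Clpx* (2.42). The other probe sets of *2210016F16Rik* gave 0.78 and 0.23, and that of *Rad51c* gave 0.62. For *Cnot4* the others gave 2.42, 0.42, 0.29 and 0.005. Another probe set gave 2.25 for *Cryz*, 2.31 for *Setd6* and 1.19 for *Gclc*. *Cryz*, a quinone reductase gene, was at the floor in cells 28, 50 and 61 and 7.11 in cell 64, while 8 of 9 *Dppa3*-high cells had 9.18 to 11.01 and cell 51 was at the floor. *Rad51c*, a gene of homologous recombination, was at the floor in all 4 *Dppa3*-low cells and in 3 of 9 *Dppa3*-high cells, and the other 6 had up to 11.17. *Setd6* encodes a lysine methyltransferase and *Cnot4* a ubiquitin ligase of the CCR4-NOT complex, and each was above the floor in 8 *Dppa3*-high cells and in 1 *Dppa3*-low cell.

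The 10 lowest were *Mesp1*, *Rps2* (-3.38), *B4galt5* (-3.27), *Smad1*, *Chid1*, *Rbm41* (-2.97), *Hsf2bp* (-2.88), *Dcun1d2*, *Usp45* (-2.52) and *D2hgdh* (-2.49). *Rps2* encodes a ribosomal protein that every cell uses. Its values were 13.45 to 13.54 in the *Dppa3*-low cells and exactly 0 in the deposit for 4 of 9 *Dppa3*-high cells, with up to 13.48 in the other 5. Over the cells not listed at 0 the difference was -0.07, and a value of 0 can be a failed estimate. *B4galt5*, a glycosyltransferase gene, was likewise listed at 0 in 5 *Dppa3*-high cells and was 10.86 to 11.02 in the *Dppa3*-low cells. *Mesp1*, in contrast, was listed at 0 in 1 of the 4 cells at the floor, and its difference without that cell was -3.17.

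**Figure D4:**
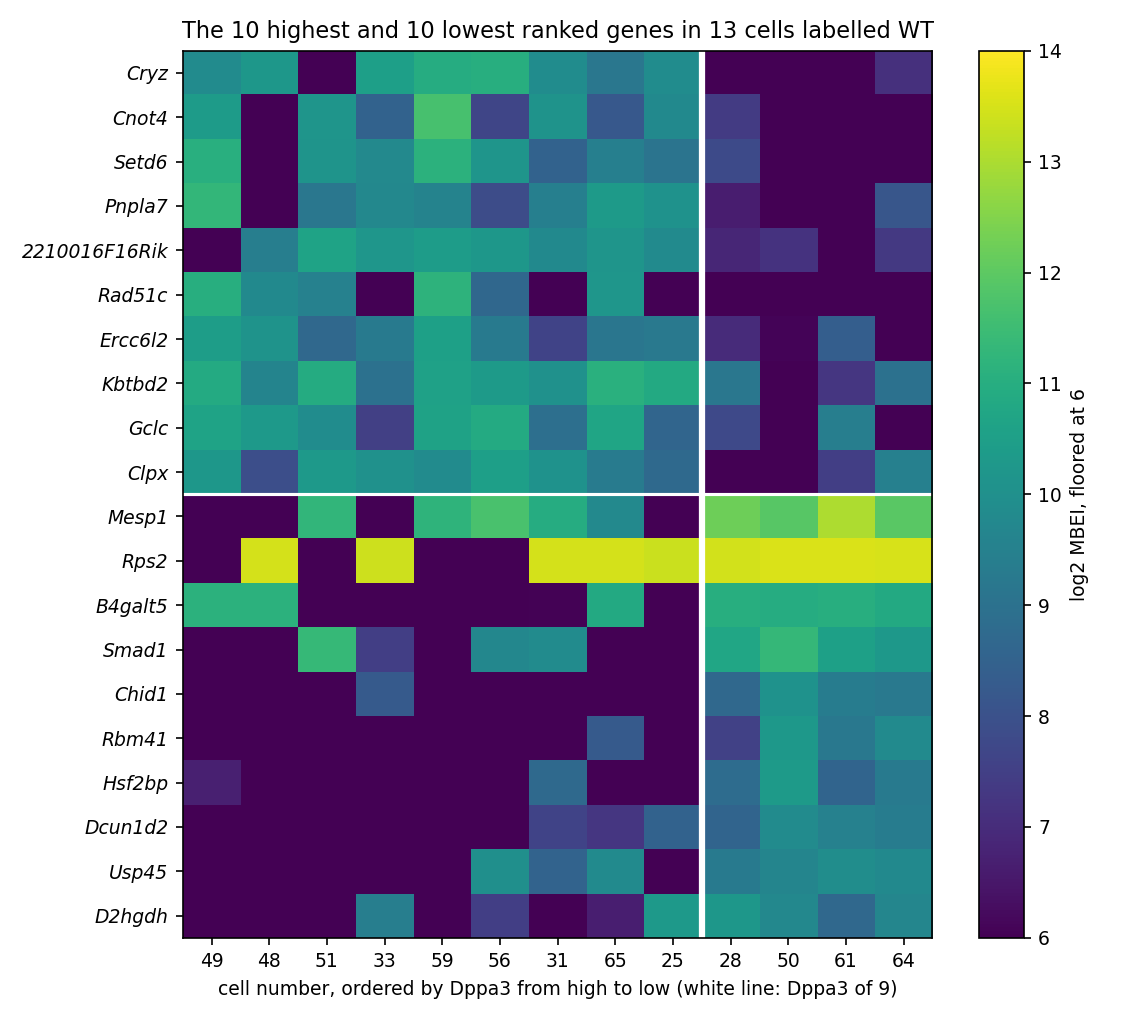
Floored log2 MBEI (colour) of the 10 highest and 10 lowest ranked genes (rows) in the 13 cells labelled WT (columns, ordered by *Dppa3* from high to low). Cells 28, 50, 61 and 64 stand right of the white line, and *Rps2* alternates between about 13.5 and the floor among the *Dppa3*-high cells.

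The same division of the 13 cells labelled Prdm14 (+/-) gave 9 cells of 9.03 to 13.06 and 4 cells of 0 to 8.07, from array runs 2 and 3. Here 1005 of 9747 genes (10.3%) were higher and 1287 (13.2%) were lower by at least 1. The mesoderm list moved the same way as in the cells labelled WT, and by more. Its score difference was -1.32 with an SD of 0.49, and 11 of 15 members compared were lower and none was higher. The difference had the same sign within run 2 (6 against 1 cell), and was -1.24 within run 3 (3 against 3 cells). *Mesp1* was 10.04, 12.40, 8.66 and 12.07 in the 4 low cells and ran from the floor to 11.71 in the 9 high cells, a difference of -2.45 with overlap. *Smad1* (-2.83), *Hoxb1* (-2.23), *Mixl1* (-1.77), *Pdgfra* (-3.22), *Sp5* (-2.31), *Mest* (-2.76) and *Ccnd1* (-2.52) had the same sign as in the cells labelled WT.

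Some other lists differed in size or sign between the 2 labels. Among all genes compared under the label Prdm14 (+/-), 10.3% were higher and 13.2% lower. The early germ cell list gave 7 of 10 higher in the cells labelled Prdm14 (+/-), with a score difference of 1.37 and an SD of 0.53, against 1 of 10 and 0.39 in the cells labelled WT. The pluripotency list gave 8 of 13 higher and a score difference of 0.74 there, against 0 of 11 and -0.10. *Sox2* differed by 3.04 and *Tet1* by 2.52 there, both opposite in sign to the cells labelled WT, as was *Epcam*, an epithelial adhesion gene, with 4.27. *Wnt3a* (0.22), *Cdx1* (-0.20) and *Tbx6* (0.44) differed by less than 1 in the cells labelled Prdm14 (+/-). Run 2 was the 1 run that both labels shared, with 1 against 2 cells labelled WT and 6 against 1 labelled Prdm14 (+/-). Within it the early germ cell score differed by 1.53 under the WT label and 2.01 under Prdm14 (+/-). The pluripotency score differed by -0.16 and 1.06. Whether the 2 labels differ in these respects was not tested. The 4 cells labelled Prdm14 (-/-), all with *Dppa3* of at least 11.98, had mesoderm and early germ cell scores of 6.87 ± 0.34 and 11.74 ± 0.37 (SD, n = 4).

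**Figure D5:**
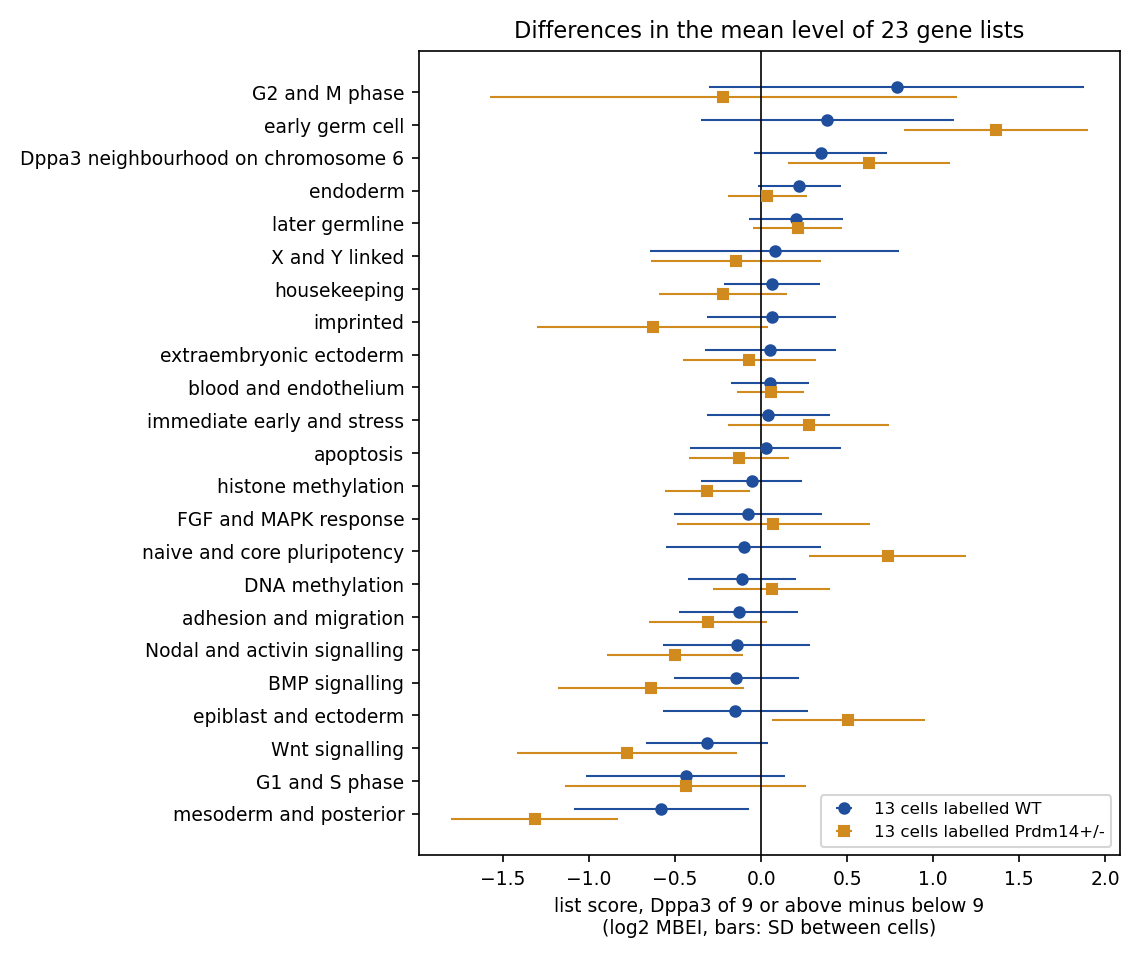
Difference in list score between cells with *Dppa3* of 9 or above and cells below 9 (x axis, log2 MBEI) for 23 gene lists (y axis) in the 13 cells labelled WT (circles) and the 13 labelled Prdm14 (+/-) (squares), with bars of 1 SD between cells. The mesoderm list lies at -0.58 and -1.32, and the early germ cell list at 0.39 and 1.37.

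Across genes, the calls under both labels were set side by side. Over all genes compared in the cells labelled Prdm14 (+/-), 10.3% were higher and 13.2% lower. Of the 860 genes higher in *Dppa3*-high cells labelled WT, 833 could be compared in the cells labelled Prdm14 (+/-), where 157 (18.8%) were higher and 117 (14.0%) were lower by at least 1. Of the 937 lower genes, 897 could be compared, and 201 (22.4%) were lower and 84 (9.36%) were higher. The shared higher genes were 18.3% of the list from the cells labelled WT and 15.6% of that from the cells labelled Prdm14 (+/-), and the shared lower genes were 21.5% and 15.6%. Of the genes whose groups did not overlap, 0 of 5 higher and 3 of 13 lower ones (*Mesp1*, *Chid1* and *Orc1*) differed by at least 1 in the same direction in the cells labelled Prdm14 (+/-). Of the 10 highest ranked genes *Rad51c* had the largest difference there, 3.03, with all 4 low cells again at the floor.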

How the data were processed

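The authors hybridised the amplified cDNA of each cell to 1 array and deposited log2 MBEI values calculated with dChip 1.3 (PM/MM difference model). How arrays were scaled, and why many values are exactly 0, is not stated in the methods or labels read. The values were used as deposited, with a floor of 6 (64 MBEI). Such a floor shrinks differences of weakly expressed genes, and an exact 0 cannot be told apart from a transcript lost in amplification. Depth is not defined for arrays.

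Probe sets were named through the platform annotation. Of 45101, 34958 had 1 symbol, 932 had several and 9211 were not listed, and 0 symbols were updated through RefSeq. Each of 18194 genes was read from 1 probe set, that of the largest average in all 30 cells. Of 340 genes on 23 lists, 25 matched no symbol and are not analysed here.

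The division of the cells, the gene lists and the ranking were chosen with earlier results of these data known. Ranked genes needed the same sign over all cells and within both runs, a mean of 8 or more and 2 or more cells above the floor in the group with the larger values, and all 4 *Dppa3*-low cells on that side of the *Dppa3*-high median. The other named genes are list members and genes whose groups did not overlap, the latter chosen after their values were seen. Each sample is 1 cell of an unnamed embryo and the groups were cut on a measured value, so no test was run. The script was tested on simulated data. Alternatives were other floors, normalizations, summaries, probe set rules, filters and *Dppa3* thresholds, the array run as a block or alone, and leaving out single cells. The tools were Python 3.11.15 with pandas 2.3.3, NumPy 2.4.6 and, for figures, matplotlib 3.10.9.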

Additional observations from a re-analysis of the deposited data

Results flagged for a closer look

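Each list score, array measure and ranked gene was examined within the 9 *Dppa3*-high and the 4 *Dppa3*-low cells for a single cell far from the others, and 9 of 82 such sets held one, where chance gives about 1 in 20. Cell 49 accounted for 5 of them. Its pluripotency score was 8.70, where the other *Dppa3*-high cells had 7.04 to 7.59. Its control values were 12.50 for the 5' end of *Gapdh* (others 12.98 to 13.28), 13.22 for the 3' end (13.33 to 13.40) and 10.90 for the 3' end of *Actb* (12.07 to 12.47). It was at the floor of 6 for *2210016F16Rik*, where the others had 9.44 to 10.65. Cell 51 was at 6 for *Cryz* (others 9.18 to 11.01), and its highest deposited value was 16.05, where the others reached 13.73 to 13.95. The highest value of *Dppa3*-low cell 50 was 15.75 (others 13.79 to 13.82). Cell 33 had a score of 9.18 for the X- and Y-linked genes (others 6 to 7.61). Its Y-linked *Eif2s3y*, *Uty* and *Kdm5d* were 10.53, 10.50 and 9.70, and *Xist* was at the floor. The cause was not tested.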

How the results depend on the processing

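The counts of 860 higher and 937 lower genes depended on the floor (1566 and 1804 at a floor of 4, 208 and 188 at 8), on averaging all probe sets of a gene (427 and 513) and on using run 2 alone, which compares 1 with 2 cells (2478 and 1618). Leaving out values listed at 0, an alternative chosen after seeing the data, gave 783 and 567 genes, so that the higher genes were 58.0% of those called in place of 47.9%. A *Dppa3* threshold of 10 gave 624 and 1233 (33.6% higher), a threshold of 6 gave 1254 and 964 (56.5%), the array run as a block gave 1058 and 902 (54.0%), and run 2 alone gave 60.5%. Quantile normalization and scaling on 4456 shared probe sets gave 873 and 947, and 884 and 936. Leaving out any of cells 28, 50, 61 and 64, or 49 and 51 (added after seeing the data), gave 858 to 1239 higher and 938 to 1165 lower genes. Of the 860 and 937 genes, 551 and 647 were called again within run 1. With values listed at 0 left out, only 403 and 359 of them were called again. Within run 2 the list score differences were 1.53 for early germ cell genes, 0.55 for histone methylation, 0.81 for Nodal and activin, 0.44 for FGF and MAPK, 0.28 for epiblast and ectoderm, 0.51 for extraembryonic ectoderm, -1.35 for G1 and S phase, 1.93 for G2 and M phase, 0.55 for adhesion and migration, 0.93 for the *Dppa3* neighbourhood and -1.41 for X- and Y-linked genes, each moved by more than the SD between cells. The other 380 list values moved by less than that. For the ranked genes 320 values under an alternative moved by less than 1 SD and 36 by more, and none of those called changed sign. *Smad1* was -1.06 as a mean over its probe sets, and *B4galt5* and *Usp45* were -0.07 and -0.04 within run 2. No paired analysis was possible because cell numbers are not shared between the groups. The causes were not tested.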
